A study of Mus musculus with 2 samples.

Results

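The genes described here are 9 factors of nonsense-mediated mRNA decay (NMD), namely Upf1, Upf2, Upf3a, Upf3b, Smg1, Smg5, Smg6, Smg8 and Smg9. They were taken by gene symbol from the 18888 genes of the expression table, with no use of their measured values. RNA was sequenced from 46C cells, a mouse embryonic stem cell (mESC) line, at passages 21 to 24 on gelatin. The PB cells carried the empty PiggyBac vector, a transposon that inserts into the genome. The PB-TERRA cells carried the same vector with a telomeric DNA fragment, from which polyadenylated telomeric repeat-containing RNA (TERRA) was expressed. There was 1 library per condition, so the spread between cultures is unknown and no difference below was tested between the conditions. Whether each library came from a clone or a pool of transfected cells is not given in the sources used here. The name under which these genes were grouped, factors that displace TERRA from telomeres, refers to a function of the proteins. Neither TERRA nor its place at telomeres was measured in the table, which holds mRNA levels only.

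NMD degrades mRNAs on which translation ends too early, and it also sets the level of many normal transcripts. The helicase UPF1 is recruited to a terminating ribosome, UPF2 joins it to UPF3A or UPF3B, and these can bind the exon junction complex that splicing leaves on the mRNA. The kinase SMG1, held in check by SMG8 and SMG9, then phosphorylates UPF1. SMG5 and SMG6 bind the phosphorylated UPF1, and SMG6 cuts the RNA. In human cells UPF1, SMG1 and SMG6 also bind telomeres, and their depletion leaves more TERRA on chromosome ends, while SMG5 and SMG6 are relatives of the yeast telomerase protein Est1. In mESCs, loss of Smg6 is known to block differentiation.

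Levels are given in FPKM (fragments per kilobase of gene length, scaled to a common number of reads). The low values of the table fell in steps worth 1 read, and the reads so recovered summed to 24769807 in PB against 24889931 in PB-TERRA. Each level therefore has an estimated read number and a 95% interval, which covers counting error only and not the difference between cultures. The difference between the libraries is the log2 ratio of FPKM + 0.1, PB-TERRA over PB. A gene passed the filter on low values if it reached 1 FPKM in either library, as 12263 genes and all 9 NMD factors did. The 10 mESC markers, among them Pou5f1 and Nanog, all passed the filter, at 31.89 to 1162.50 FPKM in PB and 37.13 to 1039.92 in PB-TERRA, with 5 higher and 5 lower in PB-TERRA.

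All 9 genes were expressed at a moderate level, between 8.56 and 44.92 FPKM in PB and between 8.39 and 43.88 in PB-TERRA. None of them differed by a log2 ratio of 1, a threshold that 0.913% of all genes past the filter reached in either direction. The genes that link UPF1 to the exon junction complex, Upf2, Upf3a and Upf3b, stood highest in their log2 ratio, from 0.19 to 0.25. The other 6 genes lay between -0.05 and 0.09. Only Upf2, at 0.2503, passed an absolute log2 ratio of 0.25, as did 17.6% of all genes in either direction and 8.02% in the direction of PB-TERRA. Of the 5039 genes with a mean level inside the range of the 9, 4.23% lay at or above 0.25. With a pseudocount of 1 the ratio of Upf2 was 0.24, and less the median of genes of like length it was 0.22, so that none of the 9 passed 0.25.

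**Figure D1:**
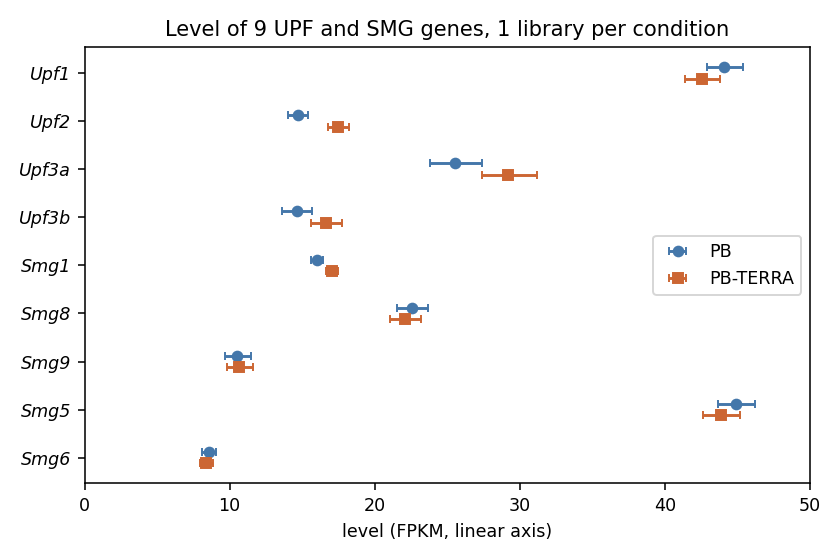
Level of the 9 UPF and SMG genes on a linear axis in FPKM, with PB as circles and PB-TERRA as squares and bars for the 95% counting interval. The points for Upf2 lie farthest apart relative to their bars (14.68 and 17.48 FPKM). The bars of Upf3b, Smg6, Smg8, Smg9, Smg5 and Upf1 overlap between the libraries, those of Upf3b only at their ends.

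The direction of the list was mixed. The log2 ratio was above 0 for 5 of the 9 genes, against 48.6% of all genes past the filter. The median of the 9 was 0.02, beside -0.0044 over all genes. With both libraries scaled by their summed FPKM, which shifts every ratio by the same amount, 8 of the 9 genes and 58.9% of all genes lay above 0. The counting interval lay above 0 for 4 of the 9 genes (Upf2, Upf3a, Upf3b and Smg1), against 18.2% of all genes. It lay below 0 for none of the 9, against 17.6% of all genes. Among the genes in the range of levels of the 9, the interval lay above 0 for 20.1% and below 0 for 18.5%. Summed over the 9 genes, the reads came to 22848 in PB against 23613 in PB-TERRA, a log2 ratio of 0.04 with a counting interval of 0.01 to 0.07. This sum has no correction for length. Its largest part is Smg1 (6131 and 6563 reads), whose ratio less the median of genes of like length was 0.01.

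**Figure D2:**
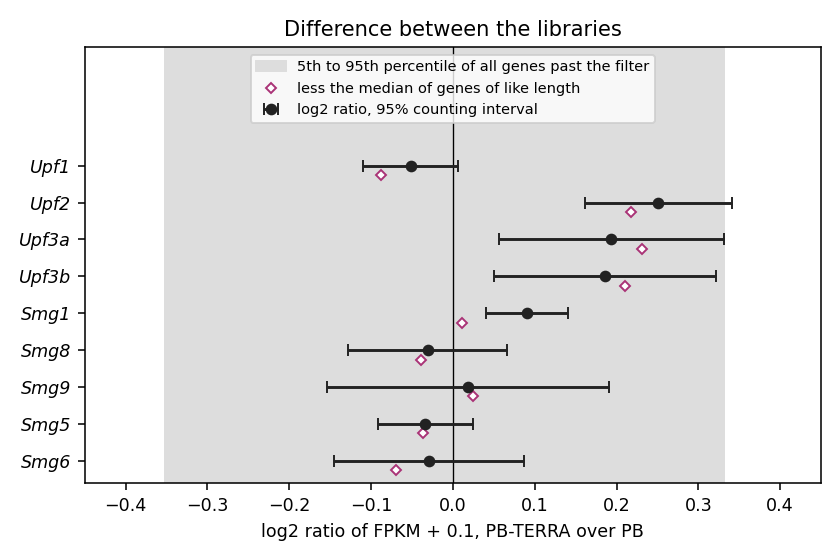
Log2 ratio of each gene, PB-TERRA over PB (circles, with the 95% counting interval), and the same ratio less the median of genes of like length (diamonds). The grey band spans the 5th to 95th percentile of all genes past the filter, -0.35 to 0.33, and all 9 points lie inside it. For the genes in the range of levels of the 9, the same percentiles (not drawn) are -0.26 and 0.23, and Upf2 lies above them.

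Upf1 encodes the RNA helicase on which every branch of NMD depends. Its level was 44.10 FPKM in PB against 42.56 in PB-TERRA, from 4905 and 4758 reads. The log2 ratio was -0.05, and its interval, -0.11 to 0.01, included 0. Of all genes past the filter, 37.7% had a lower ratio than Upf1, which puts it near the middle of the table.

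Upf2 encodes the bridge between UPF1 and the UPF3 proteins. It stood at 14.68 FPKM in PB against 17.48 in PB-TERRA, 19.1% higher, from 1840 and 2202 reads. The log2 ratio was 0.25 with an interval of 0.16 to 0.34, the highest among the 9, and 92.0% of all genes had a lower ratio. The paralogs Upf3a and Upf3b encode the proteins that compete for UPF2, of which UPF3B is the stronger activator of NMD and UPF3A the weaker. Upf3a was at 25.54 FPKM in PB against 29.22 in PB-TERRA, 14.4% higher, from 815 and 937 reads, with a log2 ratio of 0.19 (interval 0.06 to 0.33). Upf3b, on the X chromosome, was at 14.61 FPKM in PB against 16.63 in PB-TERRA, 13.8% higher, from 830 and 949 reads, with a log2 ratio of 0.19 (interval 0.05 to 0.32). Counted together, the reads of the 3 genes came to 3485 in PB against 4088 in PB-TERRA, a log2 ratio of 0.22 with an interval of 0.16 to 0.29. These 3 were the NMD factors with the highest ratios, and grouping them in this way was chosen after their values were seen.

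Markers of other cell types also differed between the libraries. The 6 primitive endoderm markers summed to 10.33 FPKM in PB against 14.18 in PB-TERRA, with 6 of 6 higher, and the 6 markers of 2-cell-like cells summed to 4.57 and 1.79, with 6 of 6 lower. Only 2 of these 2-cell markers and 5 of the primitive endoderm markers passed the filter, and Zscan4c, for example, was at 0.81 and 0.41 FPKM. The 8 fibroblast markers summed to 108.68 and 116.46, of which Fn1, an extracellular matrix protein, gave 89.17 and 93.03. Of these 8, 5 were higher and 3 lower, and the collagen gene Col1a1 was at 7.99 and 12.14. Their part in the levels of Upf2, Upf3a and Upf3b was not tested. In RNA from a whole culture, fewer cells of a type and less RNA per cell cannot be told apart.

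The promoters of Upf2, Upf3a and Upf3b are shown because these genes had the highest ratios, and because the study is about RNA made of the telomere repeat. Each sequence is the 250 bases before the RefSeq start in GRCm38, printed 5′ to 3′ on the strand of the gene, with the telomere unit TTAGGG or its reverse CCCTAA in capitals. The windows are chr2:5951219-5951468 (+ strand) for Upf2, chr8:13785365-13785614 (+ strand) for Upf3a and chrX:37110323-37110572 (- strand) for Upf3b.
Upf2: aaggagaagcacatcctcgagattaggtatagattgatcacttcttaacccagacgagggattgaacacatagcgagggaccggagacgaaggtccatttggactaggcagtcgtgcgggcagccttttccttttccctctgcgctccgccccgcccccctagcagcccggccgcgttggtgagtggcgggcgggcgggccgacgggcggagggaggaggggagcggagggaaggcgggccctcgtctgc
Upf3a: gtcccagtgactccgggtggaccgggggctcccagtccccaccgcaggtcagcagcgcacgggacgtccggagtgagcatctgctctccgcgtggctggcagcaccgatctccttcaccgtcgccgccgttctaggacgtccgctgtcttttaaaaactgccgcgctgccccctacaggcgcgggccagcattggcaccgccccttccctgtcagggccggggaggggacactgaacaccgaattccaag
Upf3b: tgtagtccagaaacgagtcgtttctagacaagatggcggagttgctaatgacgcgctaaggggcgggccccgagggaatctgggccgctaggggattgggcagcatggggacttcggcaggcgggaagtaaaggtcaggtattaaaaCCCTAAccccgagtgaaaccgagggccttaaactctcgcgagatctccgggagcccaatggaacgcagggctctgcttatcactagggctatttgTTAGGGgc
The unit occurred in 1 of the 9 promoters, that of Upf3b, where CCCTAA began 103 bases and TTAGGG 8 bases before the start. Of 32851 mouse promoters of the same length, 9.32% held at least 1 match on either strand and 0.441% held at least 2. The promoters of the 9 genes were rich in CG, with a median of 23 CG pairs (12 to 41) against 6 over all promoters. GGGCGG, the core of the GC box bound by SP1, was present on either strand in 7 of the 9 promoters and in 32.7% of all promoters. TCGCGA, a palindrome, was present in 3 of the 9 (Upf1, Upf3b and Smg5) and in 2.08% of all. Both GGGCGG and TCGCGA contain CG, and the shares are over all promoters, not over promoters as rich in CG as these. These matches are letters in a window and not sites known to be bound in these cells.

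SMG1 is the kinase that phosphorylates UPF1, a relative of ATM and mTOR, and SMG8 and SMG9 form a complex with it that limits its activity. Smg1 stood at 16.01 FPKM in PB against 17.05 in PB-TERRA, 6.50% higher, from 6131 and 6563 reads. The log2 ratio of Smg1 was 0.09 with an interval of 0.04 to 0.14, narrow because the mRNA is 15577 bases long and gathers many reads. Smg8 was at 22.58 FPKM in PB against 22.11 in PB-TERRA, from 1746 and 1718 reads, a log2 ratio of -0.03 (interval -0.13 to 0.07). Smg9 was at 10.52 FPKM in PB against 10.66 in PB-TERRA, from 552 and 562 reads, a log2 ratio of 0.02 (interval -0.15 to 0.19). The differences of Smg8 and Smg9 were thus within counting error. That of Smg1 was not, but less the median of genes of like length it was 0.01. Summed reads of the 3 genes gave a log2 ratio of 0.06 (interval 0.02 to 0.10), with no correction for length and most of it from Smg1.

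Smg5 encodes an adaptor that brings decay enzymes to phosphorylated UPF1, and Smg6 encodes the endonuclease that cuts near the stop codon. Smg5 was the most abundant of the 9 genes per length, at 44.92 FPKM in PB against 43.88 in PB-TERRA, from 4820 and 4733 reads. Its log2 ratio was -0.03 (interval -0.09 to 0.02). Smg6 was the least abundant, at 8.56 FPKM in PB against 8.39 in PB-TERRA, from 1209 and 1191 reads, with a log2 ratio of -0.03 (interval -0.15 to 0.09). Neither gene differed beyond counting error. The factors known to act at human telomeres, Upf1, Smg1 and Smg6, had 12245 reads in PB against 12512 in PB-TERRA together, a log2 ratio of 0.02 with an interval of -0.01 to 0.06. This sum has no correction for length. With scaling by summed FPKM, which raises every ratio by the same amount, its interval would lie above 0.

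The order of the levels in PB, from high to low, was Smg5, Upf1, Upf3a, Smg8, Smg1, Upf2, Upf3b, Smg9 and Smg6. In that order the intervals of Smg5 (43.7 to 46.2 FPKM) and Upf1 (42.9 to 45.4) overlapped, as did those of Upf2 (14.0 to 15.4) and Upf3b (13.6 to 15.6). In PB-TERRA the order was the same except that Upf2 (16.8 to 18.2) stood above Smg1 (16.6 to 17.5), with overlapping intervals, and the interval of Upf3b (15.6 to 17.7) overlapped that of Smg1. Among all genes past the filter, the level in PB placed Smg5 above 84.2% and Smg6 above 43.3%. The endonuclease of the pathway was thus expressed near the middle of the table, and its adaptor in the upper part.

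**Figure D3:**
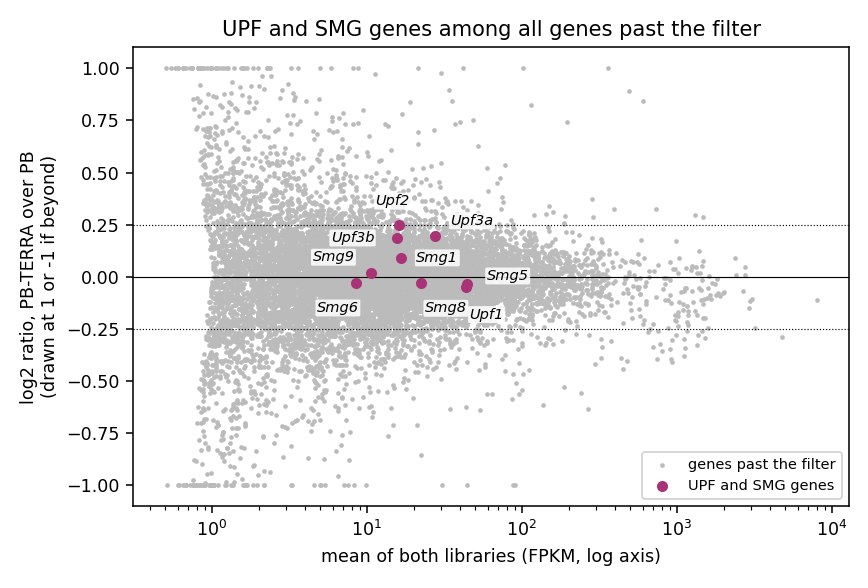
Log2 ratio against the mean FPKM of both libraries (log axis) for all genes past the filter (grey) and the 9 UPF and SMG genes (large points), with dotted lines at 0.25 and -0.25 and ratios beyond 1 or -1 drawn at that edge. The 9 genes sit in the densest part of the cloud, with Upf2 on the upper dotted line.

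Ratios between partners within a library do not depend on its scaling, though they do carry the length trend described next. Upf2 stood at 0.333 of the Upf1 level in PB and at 0.411 in PB-TERRA, a log2 change of 0.30 with a counting interval of 0.20 to 0.41. For Upf3b over Upf1 the values were 0.331 and 0.391, a change of 0.24 (0.09 to 0.38). Within the bridge the proportions differed less, as follows from grouping these genes after their high ratios were seen. Upf3a over Upf3b was 1.75 and 1.76 (change 0.01, -0.18 to 0.20) and Upf3b over Upf2 was 0.995 and 0.951 (change -0.07, -0.23 to 0.10). Both intervals included 0, and their width does not show that the proportions were equal. Smg6 over Smg5 was 0.191 in both libraries (change 0.00, -0.12 to 0.13). Smg1 over Upf1 was 0.363 and 0.401, a change of 0.14 (0.07 to 0.22), and Smg8 over Smg1 was 1.41 and 1.30, a change of -0.12 (-0.23 to -0.01). Less the medians of genes of like length, the change of Smg8 over Smg1 was -0.05 (-0.16 to 0.06), which included 0, and that of Smg1 over Upf1 was 0.10 (0.02 to 0.18).

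The log2 ratio moved with gene length over the whole table. Its median ran from -0.06 in the shortest of 10 classes of about equal size to 0.05 in the longest. The share of genes with a counting interval above 0 ran from 9.35% to 35.0%. That share also depends on read number, because longer genes gather more reads and have narrower intervals. The share below 0 by class is not given here. Smg1 belongs to the longest class, and less the median of genes of like length its ratio was 0.01. Upf2, at 5174 bases, belongs to the class in which 28.9% of intervals lay above 0, and its ratio less that median was 0.22. Upf3a (1402 bases) and Upf3b (2407 bases) are shorter, in classes with 9.13% and 16.6% of intervals above 0, and their ratios less the median were 0.23 and 0.21. With length taken into account no member passed 0.25, while Upf2, Upf3a and Upf3b stayed above the other 6, which then lay between -0.09 and 0.02.

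**Figure D4:**
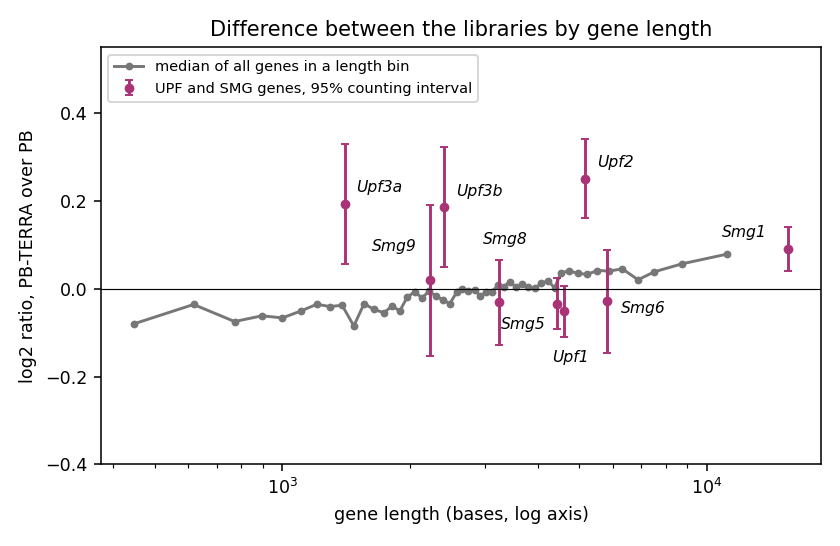
Log2 ratio of the 9 genes (points, with the 95% counting interval) against gene length in bases (log axis), with the grey line joining the medians of all genes in 50 length bins. The point for Smg1 lies next to the line, while Upf2, Upf3a and Upf3b lie above it.

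The mRNAs of several NMD factors are themselves degraded by NMD, a feedback known for Upf1, Upf2, Upf3b, Smg1, Smg5 and Smg6. Of these 6 genes 3 had a ratio above 0 and 3 below it, with a median of 0.03. Their summed reads, with no correction for length, gave a log2 ratio of 0.04 (interval 0.01 to 0.07). For the other 3, Upf3a, Smg8 and Smg9, the median was 0.02 and the summed reads also gave 0.04 (interval -0.03 to 0.11). The list of known substrates outside the pathway was also mixed at the level of whole genes. With 1 value per gene and library, a change in an NMD-sensitive isoform cannot be seen apart from the other isoforms. NMD activity itself was not measured. Of 20 listed genes 19 were in the table and passed the filter, with 10 higher and 9 lower and a median of 0.02. The interval lay above 0 for 3 of the 19 and below 0 for 5, beside 18.2% and 17.6% of all genes. Ddit3, a stress transcription factor, was at 4.69 FPKM in PB against 6.26 in PB-TERRA, from 88 and 118 reads (log2 ratio 0.41, interval 0.01 to 0.83). Chac1, a glutathione-degrading enzyme of the same stress response, was at 5.14 and 3.14, from 187 and 115 reads (log2 ratio -0.69, interval -1.06 to -0.37). These were the only substrates past an absolute log2 ratio of 0.25, and they lay in opposite directions. The noncoding RNA Gas5, a substrate often used to read NMD activity, was at 25.43 FPKM in PB against 25.94 in PB-TERRA, and Atf4, a stress transcription factor with upstream reading frames, was at 93.63 and 97.87. The last pair was named after the values were seen.

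In the exon junction complex 9 of 9 genes passed the filter, 5 higher and 4 lower with a median of 0.0029 and none past 0.25. Intervals lay above 0 for 3 of them and below 0 for 2, beside 18.2% and 17.6% of all genes. Its extremes were Acin1, a splicing-linked subunit, at 80.52 FPKM in PB against 94.95 in PB-TERRA (log2 ratio 0.24), and Rnps1, an NMD-promoting subunit, at 239.15 and 206.75 (-0.21). Of the 7 genes of translation termination and the cap- and poly(A)-binding proteins, 4 were higher and 3 lower, with a median of 0.04 and intervals above 0 for 4 and below 0 for 2, beside the same shares. Scaling by summed FPKM moved the medians to 0.0411 for the exon junction complex, 0.0762 for termination and 0.0550 for the substrates. The subunits of the nuclear cap-binding complex lay at both ends, Ncbp2 at 28.37 and 34.63 FPKM (0.29, interval 0.18 to 0.39) and Ncbp1 at 64.23 and 56.85 (-0.18). Ncbp2 was the only gene of that list past 0.25.

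The proteins that assemble SMG1 and related kinases had 2 of 7 genes higher and 5 lower, with a median of -0.09. The median was -0.04 with the length correction and -0.05 with scaling by summed FPKM. Counting intervals lay below 0 for 4 of them and above 0 for none, against 17.6% and 18.2% of all genes. Telo2, the scaffold that stabilises these kinases, was at 9.54 FPKM in PB against 8.17 in PB-TERRA (log2 ratio -0.22, interval -0.36 to -0.09), and Rpap3 had the highest ratio, at 21.60 and 22.02 (0.03). Of the 5 kinases related to SMG1, 3 were higher and 2 lower, with an interval below 0 for 1 and above 0 for none, from Mtor, the growth-control kinase, at 15.26 and 14.04 (-0.12) to Prkdc, of DNA end joining, at 3.87 and 3.99 (0.04). Smg1, at 0.09, lay above all 5. The median of the 5 was 0.03, and -0.05 with the length correction, with which Smg1 was at 0.01. Of 8 further UPF1 partners 3 were higher and 5 lower, with a median of -0.09 (-0.0542 with scaling by summed FPKM). Their intervals lay below 0 for 3 and above 0 for none. They ran from Gnl2, a nucleolar GTPase, at 58.09 and 50.60 FPKM (-0.20) to Stau2, a double-stranded RNA-binding protein, at 3.63 and 3.92 (0.11). Of 17 enzymes and adaptors of mRNA decay, which act after SMG5 and SMG6, 8 were higher and 9 lower with a median of -0.0013, and intervals lay above 0 for 2 and below 0 for 2. Dcp2, the decapping enzyme, was at 18.64 and 21.88 (0.23, interval 0.17 to 0.29), and Edc4, its enhancer, at 32.65 and 29.44 (-0.15). None of the kinase, partner and decay lists had a gene past 0.25.

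**Figure D5:**
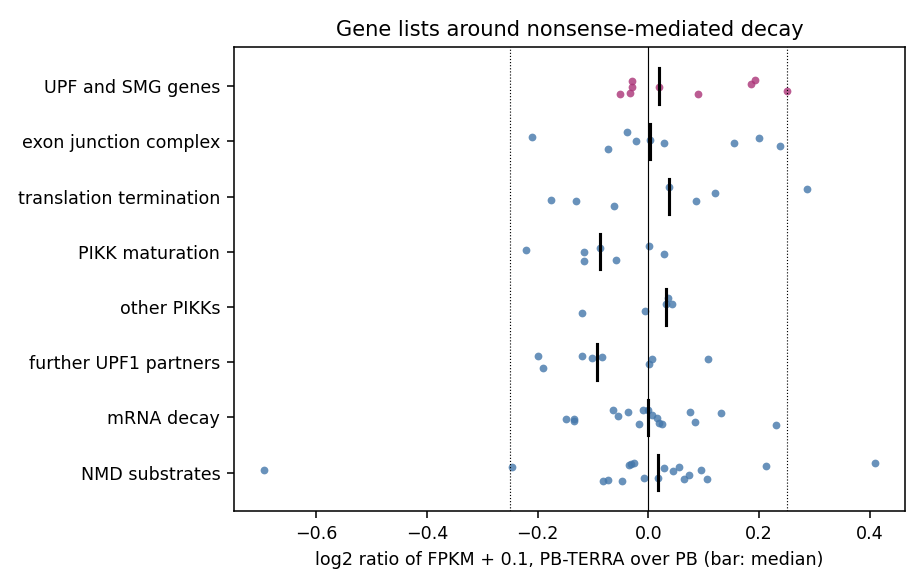
Log2 ratio of each gene past the filter (points) in the UPF and SMG list and in 7 lists around it, with a black bar for the median of each list and dotted lines at 0.25 and -0.25. PIKK stands for the kinase family of SMG1, whose assembly factors have a median of -0.09, and the single point far to the left is Chac1.

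In GRCm38 with the GENCODE M21 annotation, a later build than the mm9 named in the submitters' processing notes, the 9 genes lie on chromosomes 2, 3, 7, 8, 11 and X. Upf1 spans 70331525 to 70353278 of chromosome 8 on the - strand, Upf2 5951469 to 6056703 of chromosome 2 on the + strand, and Upf3b 37091678 to 37110322 of the X chromosome on the - strand. Upf1 shares 68 exonic bases with Cers1 and 63 with Gdf1 on the opposite strand, and Smg6 shares 126 with Srr and 117 with Gm12333. The library kit does not mark the strand, so reads in those bases cannot be assigned to either gene. They are at most 2.87% of the exonic bases of any of the 9 genes.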

How the data were processed

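Total RNA of 1 PB and 1 PB-TERRA library was sequenced on the BGISEQ-500 after a TruSeq RNA v2 preparation. The submitters' processing notes name HISAT, Cufflinks and mm9, while the versions and the annotation are not given in the sources used here. The deposited table holds 1 FPKM value per gene and library, which the authors scaled by gene length and depth. The unit is not named in the table and was inferred from its values. The sums were 497560 and 484632 FPKM. Values at 0.01, the lowest listed, numbered 1117 in PB against 997 in PB-TERRA. The table also holds the authors' own fold changes, directions, p-values and false discovery rates, none of which were used.

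FPKM multiplied by the gene length less 114 bases fell in whole steps. Of the values under 100 reads in genes of 300 to 800 bases (637 and 669 genes fitted), 73.3% and 78.2% were within 0.15 read of a whole number. Reads summed over all genes came to 100.02% and 99.98% of the depth that the steps gave. Intervals of differences are exact Clopper-Pearson, those of levels exact Poisson, and those of ratios between partners Wald intervals on the log scale, all at 95% and for counting error only. With 1 library per condition no test was made, although the steps give reads to which a count model could be applied. The depth fit and the intervals were tested on simulated data.

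The report names all 9 members, and in each list the genes with the largest and smallest ratio and, where at most 5 passed it, those past 0.25. The members and lists were chosen with earlier results of these data known. Alternatives covered the pseudocount, the filter, the scaling, a length correction in 50 bins and, added after the data were seen, the ratio of reads and the table without 746 predicted genes. Promoters came from RefSeq on GRCm38.p6. The tools were matplotlib 3.10.9, scipy 1.17.1, Python 3.11.15, pandas 2.3.3 and numpy 2.4.6.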

Additional observations from a re-analysis of the deposited data

How the results depend on the processing

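With 1 library per condition, neither the spread between cultures nor the effect of leaving out a replicate could be estimated, and depth limits only the counting error. No paired analysis was possible because each condition had 1 library. Over the settings tried, the log2 ratio ranged from 0.22 to 0.29 for Upf2, 0.19 to 0.23 for Upf3a, 0.18 to 0.22 for Upf3b and 0.01 to 0.13 for Smg1, so these 4 stayed above 0. Upf1 stayed below 0 (-0.09 to -0.01). With the libraries scaled by summed FPKM, 8 of the 9 genes were above 0 in place of 5, the summed level had a log2 ratio of 0.0781 in place of 0.04, and the sign of Smg5, Smg6 and Smg8 turned, to 0.0044, 0.0095 and 0.0079. The number of genes past 0.25 was 0 in place of 1 with a pseudocount of 1 and with the length correction, because Upf2 lay at 0.2503. The median of the 9 was 0.0570 with scaling by summed FPKM and 0.0114 with the length correction, in place of 0.0189. The median of the SMG1 assembly factors was -0.0398 with the length correction and -0.0488 with summed FPKM, in place of -0.0869. For the exon junction complex and the substrates, the length correction gave medians of 0.0287 and 0.0432, in place of 0.0029 and 0.0168. With the length correction the median of the kinases related to SMG1 was -0.0477 in place of 0.0312. Without predicted genes, the median of the genes annotated to NMD was 0.0350 in place of -0.0611. The share of all genes past 0.25 was 29.3% with no filter and 10.4% when the mean had to reach 5 FPKM, in place of 17.6%, and that past 1 was 2.72%, 0.196% and, with a pseudocount of 1, 0.367%, in place of 0.913%. The median of the mRNA decay list (-0.0013) turned to 0.0368 with scaling by summed FPKM to 0.0031 with median centring and to 0.0028 with trimmed mean scaling or a mean of 5 FPKM as the filter. The ratio of reads gave the same direction for all 9 genes.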

Other observations

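The table's own gene ontology terms cover the pathway unevenly. Of the 9 genes, Upf3b is the single member with a nonsense-mediated decay term. It is among 32 rows whose ontology terms or KEGG orthology entries name nonsense-mediated decay or mRNA surveillance. Upf1, Upf3a, Upf3b and Smg9 were among 149 rows with an mRNA catabolism term, and Upf1 and Smg6 among 56 rows with a chromosomal part term. Of the other 31 rows with a nonsense-mediated decay or mRNA surveillance entry 21 passed the filter. PB-TERRA was the higher library for 7 and the lower for 14, while 48.6% of all genes past the filter lay above 0. The median log2 ratio of the 21 was -0.06 (-0.0126 with the length correction, -0.0230 with scaling by summed FPKM and -0.0345 with a mean of 5 FPKM as the filter). Of the predicted genes 1 was higher and 10 were lower, while of the named genes 6 were higher and 4 lower with a median of 0.035. The share over all predicted genes is not given here. Among the higher ones was Rpl21, a ribosomal protein gene, at 269.10 FPKM in PB against 291.51 in PB-TERRA, and among the lower ones Rpl27 at 105.10 and 82.62 (log2 ratio -0.35, interval -0.44 to -0.25), both named after their values were seen. The extremes were predicted genes with few reads, from 0 and 17 reads at the upper end to 10 and 3 at the lower.

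Other rows share a KEGG orthology entry with a member. A predicted gene, whose mixed entry includes UPF3 and the splicing factor CWC22, was at 1.40 FPKM in PB against 1.84 in PB-TERRA, from 68 and 90 reads (log2 ratio 0.37, interval -0.07 to 0.87), and thus lay within counting error of 0. The helicase genes Helz2, Zgrf1 and Znfx1, which carry the UPF1 entry, and Swt1, which carries the SMG6 entry, also had intervals that included 0. Prr11, whose mixed entry includes SMG8, was at 13.66 and 15.24 FPKM (0.16, interval 0.05 to 0.27).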
